A study of Mus musculus with 7 samples.

Results

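The genes described here serve protein folding in the endoplasmic reticulum (ER) and the unfolded protein response, its stress signalling system. They number 38 among the 18194 genes that could be named on the arrays, and were taken from a fixed list of symbols. Where several probe sets carried only that gene's symbol, the one with the highest mean over the 7 arrays stood for the gene. All 38 passed the filter used for testing, a log2 level of at least 5 on at least 2 arrays, as did 8203 genes in all. Atf6 passed it through its OCS/LPS arrays alone.

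Secretory and membrane proteins enter the ER through the Sec61 channel, lose their signal peptide, and are folded by chaperones, lectins and disulfide-forming enzymes. Proteins that fail to fold are sent back to the cytosol and degraded. When unfolded protein accumulates, the sensors Ern1 (IRE1α), Atf6 and Eif2ak3 (PERK) raise folding and degradation capacity, in part through the transcription factor Xbp1, and PERK slows translation by phosphorylating eIF2α. In T cells this machinery serves growth after activation and the secretion of cytokines and granule proteins.

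RNA was measured in CD8 T cells from OT-I mice, whose transgenic receptor recognises an ovalbumin peptide. The donor cells carried Ly5.1 and were CD44lo when injected, and all were dyed with CFSE, which is diluted at each division. The RIP-OVAhi group (2 arrays, 20 mice pooled for each) divided at least 2 times by 60 h in mice that express ovalbumin from the rat insulin promoter, a model of deletional tolerance. The OCS/LPS group (2 arrays, 10 mice each) divided at least 2 times by 60 h in mice given ovalbumin-coated splenocytes with lipopolysaccharide, a model of immunity. The Rag group (1 array, 10 mice) divided at least 2 times by 5 days in Rag-/- mice, where an empty T cell compartment drives proliferation. The naive group (2 arrays, 10 mice each) had not divided 60 h after transfer into antigen-free B6 mice. RIP-OVAhi cells came from sacral and pancreatic lymph nodes and the other groups from spleen, so for RIP-OVAhi the tissue and the group cannot be told apart, and for Rag neither can the time and the group. Nothing in the labels ties the 2 pools of a group to separate days or experiments, so the p-values rest on a spread between arrays that may be partly technical.

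The 7 arrays had median log2 levels of 2.97 to 3.08 over all probe sets. Over the tested genes the 2 arrays of a group correlated at 0.991 (RIP-OVAhi), 0.991 (OCS/LPS) and 0.975 (naive). All 7 CD8 T cell markers on the array were present, with Cd8a between 12.6 and 13.2 and Cd3e between 9.94 and 10.4. Among markers of plasma cells, which hold abundant ER, Jchain had log2 levels of 1.65 and 2.28 for RIP-OVAhi, 8.01 and 8.45 for OCS/LPS, 1.65 for Rag and 7.07 and 6.93 for naive. Igha measured 3.40 and 3.41 on the RIP-OVAhi arrays, 4.89 and 7.52 on the OCS/LPS arrays, 3.48 in Rag and 7.28 and 8.51 in naive. Sdc1, Tnfrsf17, Mzb1, Derl3 and Prdm1 stayed under 5 on every array. Pou2af1, which B cells and plasma cells express, had log2 levels of 9.73 and 10.0 for RIP-OVAhi, 9.74 and 9.85 for OCS/LPS, 8.18 for Rag and 8.31 and 8.56 for naive. The summed plasma list came to 892 to 1075 in RIP-OVAhi, 1180 to 1507 in OCS/LPS, 332 in Rag and 636 to 894 in naive (linear signal, 3 of 8 markers at 5 or more on any array). Of 6 B cell markers 3 reached 5, with sums of 356 to 506 in RIP-OVAhi, 629 to 833 in OCS/LPS, 160 in Rag and 194 to 387 in naive, while Cd79a, Blk and Pax5 stayed near 2 on every array. Among the 3, Cd22 measured 6.53 and 7.03 on the RIP-OVAhi arrays, 8.21 and 8.55 on the OCS/LPS arrays, 4.28 in Rag and 4.04 and 3.59 in naive. Cd79b overlapped naive (7.10 and 8.27) in both RIP-OVAhi (7.89 and 8.43) and OCS/LPS (8.18 and 8.42). Ms4a1 was below naive (4.73 and 5.72) in RIP-OVAhi (3.74 and 3.98) and overlapped it in OCS/LPS (4.92 and 6.67). The Gapdh control probe sets at the 3′ and 5′ ends, a sign of RNA integrity and amplification, differed by 2.08 and 2.03 on the RIP-OVAhi arrays, 1.85 and 1.89 on the OCS/LPS arrays, 2.21 in Rag and 2.59 and 2.43 in naive. Pou2af1, Cd22 and this Gapdh difference all moved with the split of RIP-OVAhi and OCS/LPS from naive described next, while Cd79b and Ms4a1 did not. The part of any of these in that split was not tested. In pooled RNA, fewer cells expressing a gene and less of its RNA per cell cannot be told apart.

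Promoters are shown first because the mammalian unfolded protein response acts through short elements near the start of its target genes. Promoter windows of 250 bases before to 50 after the start (RefSeq, GRCm38.p6) were available for 31 of the 38 genes, 32 windows in all, and Atf6, Ppp1r15b, Hyou1, Derl1, Sec61a1, Ssr2 and Manf had none. The ER stress element, CCAAT, then 9 bases of any kind, then CCACG, on either strand, was found in 8 of the 32 windows (25%), those of Hspa5, Hsp90b1, Pdia6, Calr, Canx, Creld2, Dnajc3 and Syvn1. Among all 32851 mouse windows of the same length 39 (0.119%) held it, and among the 8597 windows of tested genes 11 (0.128%). Both counts include the 8 windows named above, and the shares of all windows given below likewise include these genes' own windows. Capitals mark the element in the sequences below, which run 5′ to 3′ on the strand of the gene. In Calr, in Creld2 and at the second copy of Hsp90b1 the element lies on the opposite strand and so reads CGTGG first.
Hspa5 (chr2:34771840-34772089, plus strand): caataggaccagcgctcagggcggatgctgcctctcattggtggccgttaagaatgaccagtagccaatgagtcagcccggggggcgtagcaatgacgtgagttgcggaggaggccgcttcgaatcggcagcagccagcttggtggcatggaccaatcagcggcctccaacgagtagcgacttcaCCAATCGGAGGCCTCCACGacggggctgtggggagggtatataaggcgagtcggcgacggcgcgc
Hsp90b1 (chr10:86705445-86705694, minus strand): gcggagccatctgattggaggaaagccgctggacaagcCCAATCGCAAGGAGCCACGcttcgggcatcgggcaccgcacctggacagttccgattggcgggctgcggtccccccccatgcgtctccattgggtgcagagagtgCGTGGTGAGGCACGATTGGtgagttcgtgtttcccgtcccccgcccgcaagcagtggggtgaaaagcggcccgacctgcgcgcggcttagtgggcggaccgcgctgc
Pdia6 (chr12:17266339-17266588, plus strand): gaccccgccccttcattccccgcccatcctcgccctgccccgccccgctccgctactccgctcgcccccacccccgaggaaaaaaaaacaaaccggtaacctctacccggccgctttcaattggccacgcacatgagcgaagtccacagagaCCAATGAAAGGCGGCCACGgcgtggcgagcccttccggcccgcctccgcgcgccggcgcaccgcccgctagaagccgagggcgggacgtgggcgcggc
Calr (chr8:84846932-84847181, minus strand): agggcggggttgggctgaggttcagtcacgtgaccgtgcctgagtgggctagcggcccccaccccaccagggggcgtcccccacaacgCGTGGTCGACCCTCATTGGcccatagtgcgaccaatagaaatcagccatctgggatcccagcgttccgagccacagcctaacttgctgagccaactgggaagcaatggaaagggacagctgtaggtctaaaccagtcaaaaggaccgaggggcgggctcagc
Creld2 (chr15:88819396-88819645, plus strand): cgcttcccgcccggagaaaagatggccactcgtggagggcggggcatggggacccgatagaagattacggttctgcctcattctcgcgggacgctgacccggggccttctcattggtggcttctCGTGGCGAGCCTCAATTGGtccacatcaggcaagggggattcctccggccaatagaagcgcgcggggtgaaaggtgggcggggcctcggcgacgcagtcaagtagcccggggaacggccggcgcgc
Canx (chr11:50325780-50325838, minus strand): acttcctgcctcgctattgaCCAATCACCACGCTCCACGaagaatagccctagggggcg
Dnajc3 (chr14:118937807-118937865, plus strand): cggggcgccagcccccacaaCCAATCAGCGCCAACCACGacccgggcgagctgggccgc
Syvn1 (chr19:6046512-6046570, plus strand): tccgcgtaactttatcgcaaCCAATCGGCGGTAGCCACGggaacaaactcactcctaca
The 9 elements in these 8 windows began between 44 bases (Syvn1) and 212 bases (the first copy of Hsp90b1) before the start.

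A related element, ERSE-II (ATTGG, 1 base of any kind, then CCACG, on either strand), was found in the windows of Herpud1 and Dnajb11 (6.25% of the genes' windows, against 0.0365% of all windows). No window of these genes held both elements. Herpud1 is shown because it was among the few of these genes to fall, with the element in capitals 52 bases before the start.
Herpud1 (chr8:94386179-94386428, plus strand): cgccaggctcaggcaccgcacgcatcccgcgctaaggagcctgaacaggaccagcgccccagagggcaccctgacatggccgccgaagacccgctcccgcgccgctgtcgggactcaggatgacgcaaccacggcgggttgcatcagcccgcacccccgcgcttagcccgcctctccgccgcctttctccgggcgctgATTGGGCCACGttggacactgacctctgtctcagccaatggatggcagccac
The UPRE core TGACGTGG was in none of the 32 windows (0.676% of all windows), and the C/EBP-ATF element ATTGCATCA was in that of Cnpy2 (3.12%, against 0.192% of all windows). A match describes the letters of a window and not a site in use.

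**Figure D1:**
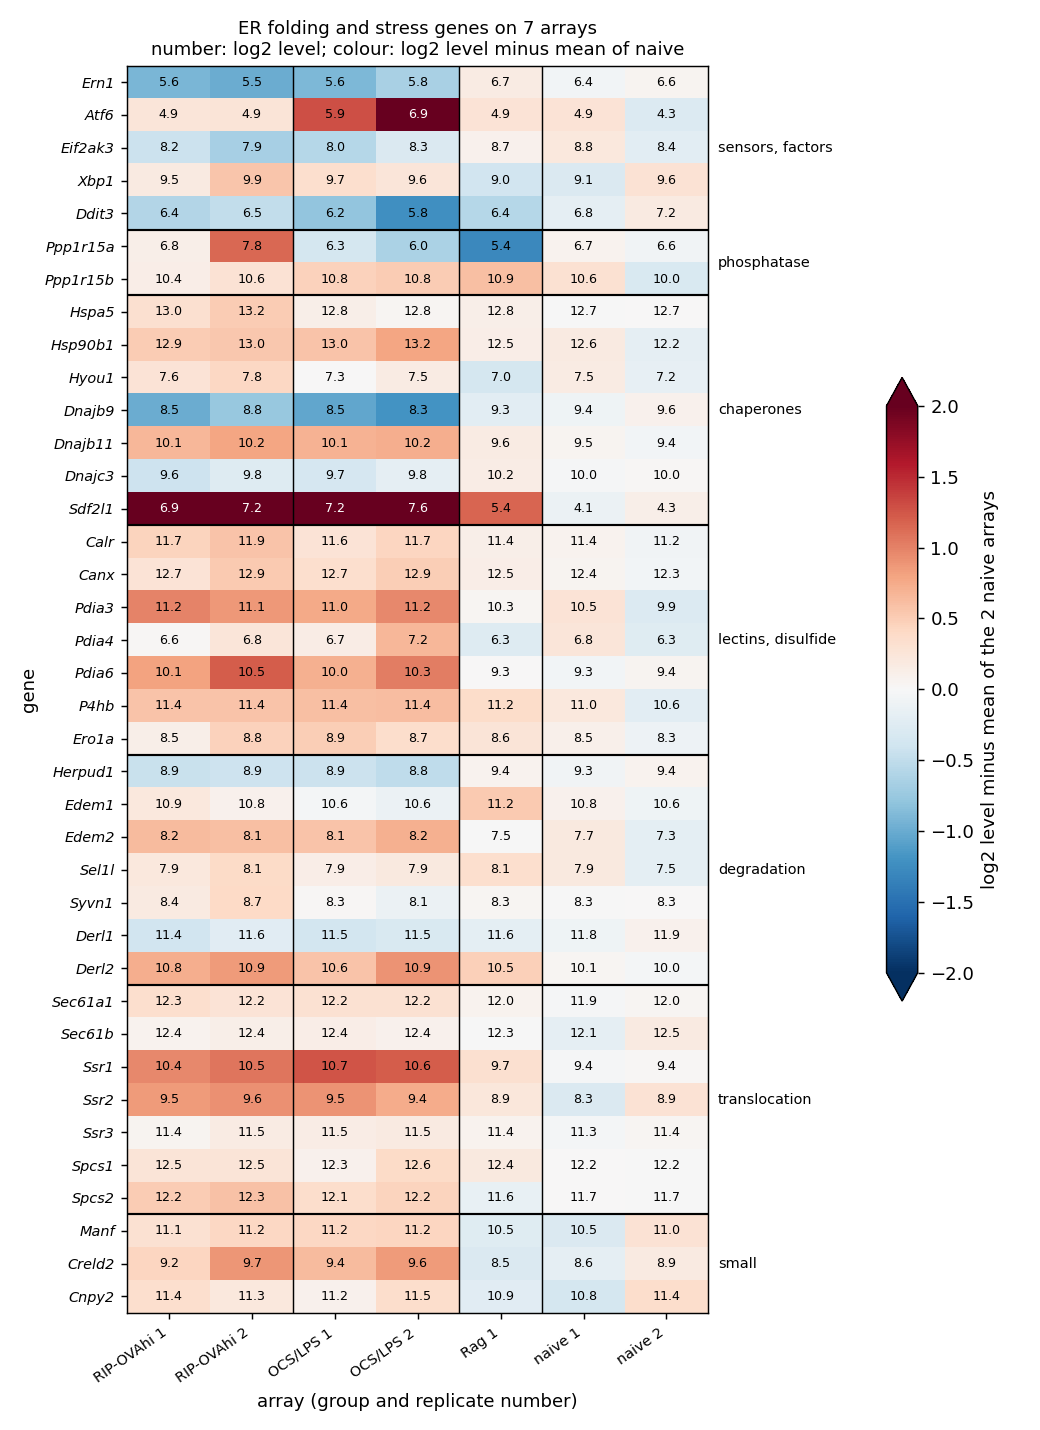
Log2 level (printed) and log2 level minus the mean of the 2 naive arrays (colour) of the 38 genes, in rows grouped by role, on the 7 arrays in columns. Sdf2l1 stands out at 6.91 to 7.62 in RIP-OVAhi and OCS/LPS against 4.11 and 4.34 in naive, while Ern1 and Dnajb9 are blue in the same 4 arrays.

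Against naive cells, 11 of the 38 genes rose and 3 fell in RIP-OVAhi cells at a limma adjusted p under 0.05. Those that rose were Sdf2l1, Ssr1, Pdia6, Pdia3, Ssr2, Derl2, Dnajb11, Edem2, P4hb, Spcs2 and Calr, which act in folding, entry and disposal, and those that fell were Ern1, Dnajb9 and Herpud1. Of all tested genes 29.6% were called in this comparison, 18.1% higher and 11.6% lower, against 36.8% of these genes, 28.9% higher and 7.89% lower. Their median log2 difference was 0.33, against 0.06 over all tested genes, and 31 of 38 differences were positive. The arrays of the 14 called genes did not overlap between the groups, and each kept its sign within both array numbers. A call nearly requires both. Among all 38 genes, called or not, 31 had arrays that did not overlap, so the lack of overlap adds no support to the calls.

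In OCS/LPS cells 13 of the 38 genes rose and 4 fell against naive. One of the 13, Atf6, passed the filter through its OCS/LPS arrays alone and so had to be high there, which leaves 12 others. The rises were those of Sdf2l1, Atf6, Ssr1, Pdia6, Pdia3, Ssr2, Creld2, Derl2, Dnajb11, Hsp90b1, Edem2, P4hb and Spcs2, and the falls those of Dnajb9, Ddit3, Ern1 and Herpud1. Here 32.9% of all tested genes were called, 20.5% higher and 12.3% lower, against 44.7% of these genes, 34.2% higher and 10.5% lower. Their median log2 difference was 0.33, against 0.08 over all tested genes, with 28 of 38 positive. The comparison shares its 2 naive arrays with that of RIP-OVAhi, so the likeness of their lists is not independent. All 17 called genes kept apart in every array and so kept their sign within both array numbers, which a call nearly requires.

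Part of the upward lean depends on scaling. With each array centred on the median of its tested genes, a setting chosen after the data were seen, all genes shifted by -0.12 (RIP-OVAhi against naive) and -0.15 (OCS/LPS against naive) on the log2 scale. The split of all calls became 1192 higher and 1296 lower in place of 1481 and 948 for RIP-OVAhi, and 1340 and 1461 in place of 1685 and 1013 for OCS/LPS. For the 38 genes it became 8 higher and 6 lower in RIP-OVAhi (median 0.20), and 9 and 6 in OCS/LPS (median 0.18). P4hb and Edem2 lost their calls in both groups, as did Calr in RIP-OVAhi and Spcs2 and Creld2 in OCS/LPS. Dnajc3 and Derl1 were then called lower in both and Eif2ak3 in RIP-OVAhi. Before this centring, the other detected probe sets of Dnajc3 differed from naive by 0.06 to 0.22 in RIP-OVAhi and by 0.05 to 0.29 in OCS/LPS. Those of Derl1 differed by -0.04 to 0.81 and by -0.08 to 0.90.

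**Figure D2:**
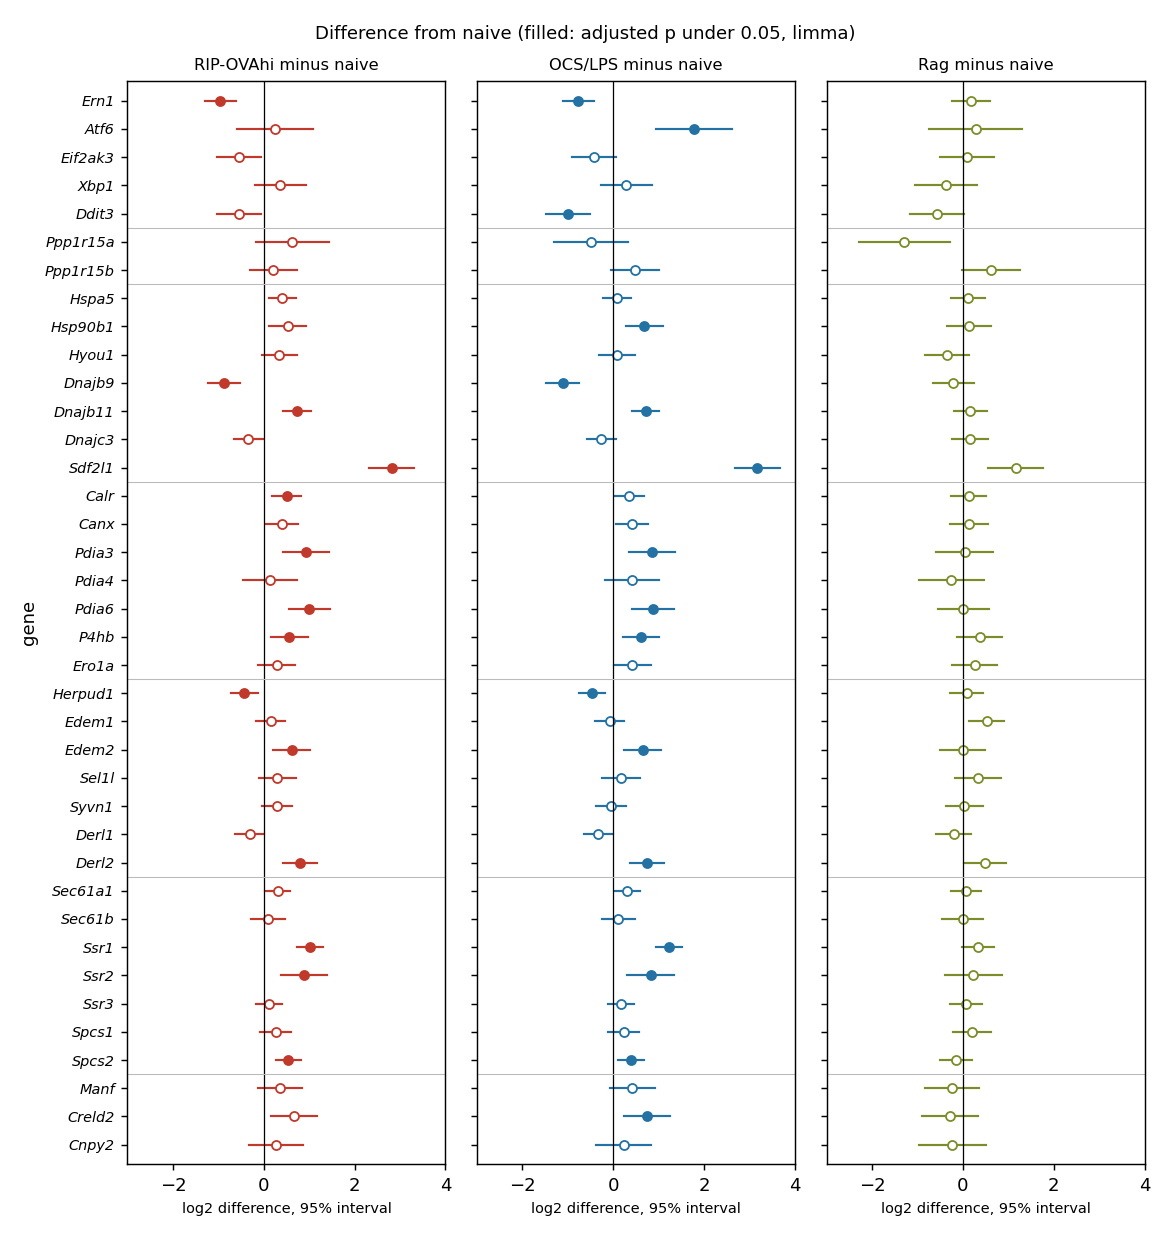
Log2 difference from naive of the 38 genes in RIP-OVAhi, OCS/LPS and Rag cells, with 95% intervals from limma; filled points have an adjusted p under 0.05. The left panel holds 14 filled points, the middle one 17 and the right one 0, and Sdf2l1 lies farthest to the right in all 3.

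Among the sensors and transcription factors, Ern1 RNA was lower in both antigen-driven groups. Ern1, the kinase and nuclease that splices Xbp1 RNA, measured 5.59 and 5.50 on the RIP-OVAhi arrays, 5.60 and 5.85 on the OCS/LPS arrays, 6.67 in Rag and 6.44 and 6.56 in naive. Every RIP-OVAhi and OCS/LPS array was thus below every Rag and naive array. Ern1 fell by 0.95 in RIP-OVAhi (SE 0.14, adjusted p = 0.00528) and by 0.77 in OCS/LPS (SE 0.14, adjusted p = 0.00945). A second detected probe set for Ern1, near 5.5 in all groups, differed from naive by -0.05 (RIP-OVAhi) and -0.06 (OCS/LPS), and with the 2 averaged the differences were -0.50 and -0.42.

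Atf6, which is cut in the Golgi to release a transcription factor, had log2 levels of 4.87 and 4.88 for RIP-OVAhi, 5.90 and 6.87 for OCS/LPS, 4.90 for Rag and 4.89 and 4.35 for naive. It reached the filter's level of 5 on the OCS/LPS arrays alone, and those 2 arrays were 0.97 apart, the widest gap of any of these genes in that group. With naive under that level, OCS/LPS was at least 2.61-fold higher, its mean set against 5. The fitted difference of 1.77 (SE 0.34, adjusted p = 0.0122) is open to that choice, and without OCS/LPS array 2 it was 1.28 (adjusted p = 0.0519). In RIP-OVAhi it was 0.26 (adjusted p = 0.612), with overlapping arrays.

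Eif2ak3, the kinase that phosphorylates eIF2α, measured 8.19 and 7.95 on the RIP-OVAhi arrays, 8.05 and 8.32 on the OCS/LPS arrays, 8.70 in Rag and 8.83 and 8.39 in naive. It did not pass the test, with differences of -0.55 in RIP-OVAhi (adjusted p = 0.0889) and -0.43 in OCS/LPS (adjusted p = 0.15). Atf4, the transcription factor translated when eIF2α is phosphorylated and not one of the 38, had log2 levels of 10.44 and 10.48 for RIP-OVAhi, 10.67 and 10.55 for OCS/LPS, 10.83 for Rag and 11.21 and 11.20 for naive. Its RNA fell by 0.74 in RIP-OVAhi (SE 0.12, adjusted p = 0.00664) and by 0.59 in OCS/LPS (SE 0.12, adjusted p = 0.0129).

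Ddit3 (CHOP), a transcription factor of prolonged stress, measured 6.42 and 6.51 on the RIP-OVAhi arrays, 6.22 and 5.78 on the OCS/LPS arrays, 6.42 in Rag and 6.83 and 7.17 in naive, so naive cells held the most of it. It fell by 1.002 in OCS/LPS (SE 0.20, adjusted p = 0.0131), and its difference in RIP-OVAhi was -0.54 (adjusted p = 0.0936). Xbp1 had log2 levels of 9.53 and 9.91 for RIP-OVAhi, 9.69 and 9.60 for OCS/LPS, 8.98 for Rag and 9.07 and 9.64 for naive. The naive arrays spanned much of that range, and the chosen probe set of Xbp1 was called in none of the 6 comparisons. With its probe sets averaged Xbp1 was called higher against Rag in RIP-OVAhi (0.70, adjusted p = 0.0463) and in OCS/LPS (0.74, adjusted p = 0.0388), and without either naive array in RIP-OVAhi (0.74, adjusted p = 0.0434). A second probe set differed from naive by 0.56 in RIP-OVAhi and by 0.70 in OCS/LPS, and its spliced and unspliced forms were not told apart here.

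Of the eIF2α phosphatase subunits, which undo the phosphorylation by PERK, neither was called against naive. The stress-induced subunit Ppp1r15a (GADD34) measured 6.76 and 7.78 on the RIP-OVAhi arrays, 6.29 and 6.01 on the OCS/LPS arrays, 5.35 in Rag and 6.71 and 6.56 in naive. The RIP-OVAhi arrays were 1.02 apart, the widest gap of any of the 38 genes in that group, and without array 1 of them the difference from naive was called (1.14, adjusted p = 0.0402). The constitutive subunit Ppp1r15b lay between 10.01 and 10.92 on all arrays, lowest in naive array 2 and highest in Rag.

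The Hsp70 and Hsp90 chaperones and their helpers did not move as a block. Sdf2l1, a partner of ER co-chaperones, changed most of the 38 genes in both comparisons with naive. It measured 6.91 and 7.17 on the RIP-OVAhi arrays, 7.16 and 7.62 on the OCS/LPS arrays, 5.38 in Rag and 4.11 and 4.34 in naive. The naive arrays were under 5, the Rag array was between, and the 4 antigen-driven arrays were highest with no overlap. The rise was 2.82 in RIP-OVAhi (SE 0.20, adjusted p = 0.000388) and 3.16 in OCS/LPS (SE 0.20, adjusted p = 0.00021) in the fit. Since both naive arrays lay under 5, the rise is better given as a bound against that level, at least 4.12-fold in RIP-OVAhi and at least 5.24-fold in OCS/LPS.

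The J-domain co-chaperones, which direct Hspa5 to its clients, went different ways. Dnajb11 had log2 levels of 10.10 and 10.23 for RIP-OVAhi, 10.12 and 10.16 for OCS/LPS, 9.59 for Rag and 9.49 and 9.37 for naive, and it rose by 0.73 in RIP-OVAhi (SE 0.12, adjusted p = 0.00831) and by 0.71 in OCS/LPS (SE 0.12, adjusted p = 0.00831). Dnajb9, known also as a repressor of Ern1 signalling, measured 8.54 and 8.77 on the RIP-OVAhi arrays, 8.49 and 8.33 on the OCS/LPS arrays, 9.32 in Rag and 9.44 and 9.62 in naive. Rag and naive arrays were thus all above the antigen-driven ones. Dnajb9 fell by 0.88 in RIP-OVAhi (SE 0.15, adjusted p = 0.00863) and by 1.12 in OCS/LPS (SE 0.15, adjusted p = 0.00346). Dnajc3, an inhibitor of PERK in some settings, had differences of -0.34 and -0.26 in RIP-OVAhi and OCS/LPS, neither called. Its other detected probe sets went the other way, by 0.06 to 0.22 and by 0.05 to 0.29.

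Hspa5 (BiP), the central ER chaperone, had log2 levels of 13.04 and 13.23 for RIP-OVAhi, 12.84 and 12.76 for OCS/LPS, 12.84 for Rag and 12.71 and 12.74 for naive. The RIP-OVAhi arrays were the highest, yet the difference of 0.41 from naive missed the threshold (SE 0.12, adjusted p = 0.0539), and in OCS/LPS it was 0.08 (adjusted p = 0.661). The RIP-OVAhi difference passed with each array centred on its median (0.47, adjusted p = 0.0368) and with a trend in the prior (adjusted p = 0.0243). Hsp90b1 (GRP94), which folds integrins and Toll-like receptors, measured 12.92 and 12.96 on the RIP-OVAhi arrays, 12.98 and 13.21 on the OCS/LPS arrays, 12.55 in Rag and 12.59 and 12.24 in naive. It rose in OCS/LPS by 0.68 (SE 0.16, adjusted p = 0.0249), and its difference in RIP-OVAhi was 0.52 (adjusted p = 0.0597). A second probe set for Hsp90b1 differed from naive by 0.00 in OCS/LPS and -0.17 in RIP-OVAhi, and with both averaged the OCS/LPS call was lost (0.34, adjusted p = 0.195). The nucleotide exchange factor Hyou1 was not called in either group.

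**Figure D3:**
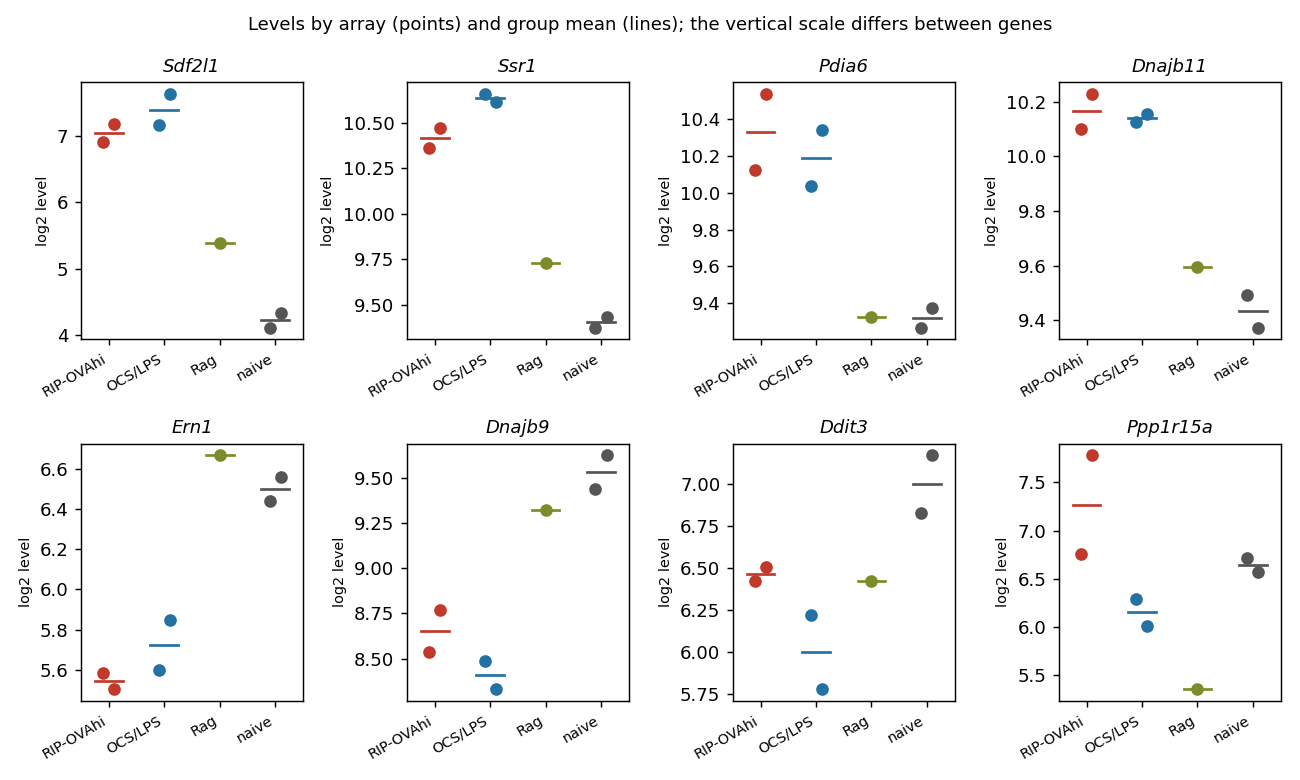
Log2 level of 8 of the genes on each array (points) with the group means (lines), by group, on a vertical scale that differs between genes. Sdf2l1, Ssr1, Pdia6 and Dnajb11 are highest in RIP-OVAhi and OCS/LPS, Ern1 and Dnajb9 lowest there, and Ppp1r15a differs by 1.02 between the 2 RIP-OVAhi arrays.

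All 7 lectin chaperones and disulfide enzymes had positive differences in both groups, 4 of them called in RIP-OVAhi and 3 in OCS/LPS. Of all tested genes 55.1% were positive and 18.1% called higher in RIP-OVAhi, and 56.6% and 20.5% in OCS/LPS. Pdia6, a disulfide isomerase that also damps Ern1 signalling, had log2 levels of 10.12 and 10.54 for RIP-OVAhi, 10.04 and 10.34 for OCS/LPS, 9.32 for Rag and 9.27 and 9.37 for naive. The Rag array was within the naive range and all antigen-driven arrays were above it. Pdia6 rose by 1.01 in RIP-OVAhi (SE 0.19, adjusted p = 0.012) and by 0.87 in OCS/LPS (SE 0.19, adjusted p = 0.0176).

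Pdia3 (ERp57), which forms disulfides in glycoproteins and works in MHC class I loading, measured 11.20 and 11.07 on the RIP-OVAhi arrays, 10.96 and 11.17 on the OCS/LPS arrays, 10.25 in Rag and 10.49 and 9.93 in naive. Its rise was 0.93 in RIP-OVAhi (SE 0.21, adjusted p = 0.0222) and 0.85 in OCS/LPS (SE 0.21, adjusted p = 0.0259). P4hb, the abundant protein disulfide isomerase, rose by 0.57 and 0.61 in the same order, and the lectin Calr rose by 0.50 in RIP-OVAhi (adjusted p = 0.0333), with 0.35 in OCS/LPS (adjusted p = 0.0884). Canx, the membrane-bound partner of Calr, had 0.40 and 0.41 and was not called in either, nor were Pdia4 and the oxidase Ero1a, which the list gives by its older symbol Ero1l. With probe sets averaged Canx was called higher in RIP-OVAhi (0.57, adjusted p = 0.031) and in OCS/LPS (0.66, adjusted p = 0.0175), and so was Ero1a (0.50, adjusted p = 0.0389, and 0.61, adjusted p = 0.0181).

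ER-associated degradation was mixed. Derl2, part of the channel that returns proteins to the cytosol, had log2 levels of 10.77 and 10.89 for RIP-OVAhi, 10.61 and 10.94 for OCS/LPS, 10.52 for Rag and 10.09 and 9.99 for naive. Its called rise was 0.79 in RIP-OVAhi (SE 0.15, adjusted p = 0.0133) and 0.73 in OCS/LPS (SE 0.15, adjusted p = 0.0154), but a second probe set for Derl2 went the other way (-0.52 and -0.33), and with both averaged the call was lost (0.14, adjusted p = 0.466, and 0.20, adjusted p = 0.274).

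Edem2, which trims mannose from misfolded glycoproteins, measured 8.16 and 8.12 on the RIP-OVAhi arrays, 8.10 and 8.25 on the OCS/LPS arrays, 7.52 in Rag and 7.73 and 7.33 in naive. Here Rag lay between the naive arrays. Edem2 rose by 0.61 in RIP-OVAhi (SE 0.16, adjusted p = 0.0378) and by 0.64 in OCS/LPS (SE 0.16, adjusted p = 0.0296).

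Herpud1, a stress-induced organiser of the degradation complex, had log2 levels of 8.90 and 8.93 for RIP-OVAhi, 8.91 and 8.83 for OCS/LPS, 9.42 for Rag and 9.27 and 9.41 for naive. It fell by 0.43 in RIP-OVAhi (SE 0.12, adjusted p = 0.0423) and by 0.47 in OCS/LPS (SE 0.12, adjusted p = 0.0288), and with its probe sets averaged the RIP-OVAhi call was lost (-0.32, adjusted p = 0.0872). The ubiquitin ligase Syvn1 (HRD1), its partner Sel1l, Edem1 and Derl1 were not called in either group, with differences of -0.33 to 0.30 for the chosen probe sets. Other detected probe sets of these genes differed from naive by -0.04 to 0.81 in RIP-OVAhi and by -0.08 to 0.90 in OCS/LPS. Both ends of these ranges came from Derl1, and a second probe set of Edem1 had 0.53 and 0.54.

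Of the 7 genes of protein entry 3 were called higher in both groups (42.9%), against 18.1% of all tested genes in RIP-OVAhi and 20.5% in OCS/LPS. Ssr1, a subunit of the translocon-associated protein complex that helps some signal peptides insert, measured 10.36 and 10.47 on the RIP-OVAhi arrays, 10.66 and 10.61 on the OCS/LPS arrays, 9.73 in Rag and 9.37 and 9.43 in naive. Replicate arrays lay close together and the order was OCS/LPS, RIP-OVAhi, Rag, naive, with no overlap. Ssr1 rose by 1.01 in RIP-OVAhi (SE 0.12, adjusted p = 0.00239) and by 1.23 in OCS/LPS (SE 0.12, adjusted p = 0.000964).

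Ssr2, of the same complex, had log2 levels of 9.49 and 9.55 for RIP-OVAhi, 9.53 and 9.38 for OCS/LPS, 8.86 for Rag and 8.34 and 8.93 for naive. It rose by 0.89 in RIP-OVAhi (SE 0.21, adjusted p = 0.0245) and by 0.82 in OCS/LPS (SE 0.21, adjusted p = 0.0291). Spcs2, a signal peptidase subunit, measured 12.24 and 12.31 on the RIP-OVAhi arrays, 12.08 and 12.18 on the OCS/LPS arrays, 11.59 in Rag and 11.74 and 11.72 in naive. Its rise was 0.54 in RIP-OVAhi (adjusted p = 0.0185) and 0.40 in OCS/LPS (adjusted p = 0.0458), the second lost with its probe sets averaged (0.31, adjusted p = 0.0839). The channel subunits Sec61a1 and Sec61b, Ssr3 and Spcs1 had positive differences of 0.10 to 0.31 and none was called. With probe sets averaged, Sec61a1 was called in RIP-OVAhi (0.60, adjusted p = 0.0201) and in OCS/LPS (0.67, adjusted p = 0.0124), as was Ssr3 in OCS/LPS (0.45, adjusted p = 0.0329). The other detected probe sets of Sec61a1 differed from naive by -0.27 to 1.32 in RIP-OVAhi and by -0.29 to 1.59 in OCS/LPS.

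Among the small stress proteins, Creld2 had log2 levels of 9.21 and 9.65 for RIP-OVAhi, 9.41 and 9.62 for OCS/LPS, 8.49 for Rag and 8.60 and 8.95 for naive. It rose by 0.74 in OCS/LPS (SE 0.21, adjusted p = 0.0392), with 0.66 in RIP-OVAhi (adjusted p = 0.0603). Manf, a secreted ER stress protein, and Cnpy2 were not called, and the 2 naive arrays of Cnpy2 were 0.69 apart, the widest naive gap of the 38 genes.

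How firmly these calls stand differs by gene. Sdf2l1 and Ssr1 were called against naive in both groups under all 14 alternatives, and so was Dnajb9 in OCS/LPS. Without RIP-OVAhi array 1 the RIP-OVAhi count was 4 higher and 1 lower, where 10.9% of all tested genes were called, and without RIP-OVAhi array 2 it was 2 and 1, where 9.84% were. Without either OCS/LPS array, which leaves fewer arrays to estimate the spread, it was 6 and 2, beside 19.5% of all genes. The OCS/LPS count was 4 higher and 2 lower without OCS/LPS array 1 (14.8% of all genes called), 2 and 2 without OCS/LPS array 2 (12.4%), and 6 and 3 without either RIP-OVAhi array (22.0%). The calls of all genes thus dropped together with those of the 38. With the replicate number as a block the calls of Calr (adjusted p = 0.0548), P4hb (0.0541), Edem2 (0.0522) and Herpud1 (0.0719) were lost in RIP-OVAhi, while Creld2 was gained (0.0217), and those of Herpud1 (0.0507) and Spcs2 (0.0748) were lost in OCS/LPS.

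Single arrays ended most of the other calls. In RIP-OVAhi, that of Ern1 was lost without RIP-OVAhi array 2 (adjusted p = 0.0581), that of Dnajb9 without RIP-OVAhi array 1 (0.0743) and that of Pdia6 without RIP-OVAhi array 2 (0.0844). The call of Dnajb11, Spcs2 and Derl2 was lost without either RIP-OVAhi array. Pdia3, P4hb, Edem2, Ssr2, Herpud1 and Calr lost theirs without any 1 of the RIP-OVAhi or OCS/LPS arrays, and Calr also without naive array 2. In OCS/LPS, Ern1 was lost without OCS/LPS array 1, Ddit3, Derl2 and Atf6 without OCS/LPS array 2, and Dnajb11 and Pdia6 without either. Hsp90b1, Pdia3, P4hb, Edem2, Ssr2, Spcs2, Herpud1 and Creld2 lost their OCS/LPS call without any 1 of the RIP-OVAhi or OCS/LPS arrays, and Creld2 also without naive array 1. These values kept their sign throughout.

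The 8 genes with the ER stress element had a median difference from naive of 0.46 in RIP-OVAhi, 7 of 8 positive and 2 called higher (Pdia6 and Calr). The 23 others with a promoter window had a median of 0.29, with 8 called higher and 3 lower. In OCS/LPS the medians were 0.38 with the element, 3 of 8 called higher, and 0.23 without it, 8 called higher and 4 lower. Of all tested genes 18.1% were called higher and 11.6% lower in RIP-OVAhi, and 20.5% and 12.3% in OCS/LPS. Sdf2l1, which rose most in both comparisons, had no such element in its window. Neither had Ern1, which fell most in RIP-OVAhi, nor Dnajb9, which fell most in OCS/LPS. Pdia6, which held the element, rose by 1.01 in RIP-OVAhi and by 0.87 in OCS/LPS. Ssr1, which did not, rose by 1.01 and 1.23, and Atf6 had no window.

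Rag cells, which divided without ovalbumin, gave no call against naive in these genes, where few of all tested genes were called either. By limma 2.15% of all tested genes were called higher and 0.585% lower (2.73% in all), a share close to none of 38. With 1 Rag array the median SE of the 38 genes was 0.20, against 0.16 for RIP-OVAhi and OCS/LPS. Their median difference was 0.08, beside 0.04 for all tested genes. An unadjusted p under 0.05 was found for 4 of them and for 18.1% of all tested genes. Those 4 were Sdf2l1 (1.16 against naive levels under 5, SE 0.25, adjusted p = 0.0802), Edem1 (0.52), Ppp1r15a (-1.29) and Derl2 (0.48). With the replicate block Sdf2l1 passed (1.32, adjusted p = 0.031). Without naive array 1 Ppp1r15b, P4hb and Edem1 were called higher and Manf lower, but 19.8% of all tested genes were then called, so the background of 2.73% rests on that array. The single Rag array itself has no replicate.

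The summed markers of myeloid and MHC class II presenting cells were highest on the Rag array, whereas the plasma cell and B cell sums given above were lowest there. The summed myeloid list was 66.2 to 80.0 in RIP-OVAhi, 267 to 415 in OCS/LPS, 975 in Rag and 336 to 538 in naive, with 4 of 7 markers at 5 or more on any array. Csf1r was at 8.51 in Rag and under 3 elsewhere. Lyz1 and Lyz2 were higher on naive array 2 (8.67 and 6.06) than on the Rag array (8.46 and 5.79). The summed MHC class II list was 52.9 to 60.4 in RIP-OVAhi, 206 to 344 in OCS/LPS, 576 in Rag and 208 to 211 in naive (4 of 5 markers). Their part in the differences from Rag was not tested.

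Compared with Rag cells, 5 of the 38 genes were higher in RIP-OVAhi and 1 was lower, where 9.84% and 6.90% of all tested genes were called. Ppp1r15a differed by 1.92 (SE 0.40, adjusted p = 0.0281), Sdf2l1 by 1.66 (SE 0.25, adjusted p = 0.00963), Pdia6 by 1.003 (adjusted p = 0.0362), Spcs2 by 0.69 (adjusted p = 0.0257) and Ssr1 by 0.69 (adjusted p = 0.0267), while Ern1 was lower (-1.12, SE 0.17, adjusted p = 0.0101). With the replicate block Ppp1r15a (adjusted p = 0.0513), Ssr1 (0.0667) and Spcs2 (0.0649) were no longer called, and Creld2 was (0.77, adjusted p = 0.0486). Every one of the 6 was lost without RIP-OVAhi array 2, which left none, and all but Ppp1r15a without RIP-OVAhi array 1. All genes called fell to 4.51% without array 2 and 4.62% without array 1. The counts were 1 higher and 1 lower without either OCS/LPS array (8.58% of all genes), and 13 higher and 3 lower without either naive array (31.1%).

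Against the same Rag array, 4 genes were higher and 2 lower in OCS/LPS, where 11.2% and 6.90% of all tested genes were called. The rises were those of Sdf2l1 (2.01, SE 0.25, adjusted p = 0.00528), Creld2 (1.02, adjusted p = 0.0426), Ssr1 (0.91, SE 0.14, adjusted p = 0.0117) and Spcs2 (0.54, adjusted p = 0.0495), and the falls those of Ern1 (-0.94, adjusted p = 0.0179) and Dnajb9 (-0.91, SE 0.18, adjusted p = 0.0242). Spcs2 was lost with the replicate block (adjusted p = 0.114). The calls of Ern1, Dnajb9, Creld2 and Spcs2 were lost without any 1 of the RIP-OVAhi or OCS/LPS arrays, and that of Ssr1 without either OCS/LPS array, whereas 11 genes were higher and 4 lower without either naive array, where 34.5% of all genes were called. These 2 comparisons share the Rag array, so its own deviation enters both. Calls of these genes came to 6 of 38 in each, a share close to the 16.7% and 18.1% of all tested genes.

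Between the tolerance and immunity models, the test separated none of the 38 genes and few of all tested genes. Of all tested genes 2.91% were called between RIP-OVAhi and OCS/LPS by limma, 1.61% higher and 1.3% lower, a share close to none of 38. An unadjusted p under 0.05 was found for 4 of the 38 (Atf6, Ppp1r15a, Hspa5 and Syvn1) and for 16.5% of all tested genes. The median difference was 0.03, beside -0.05 over all tested genes. In size 35 of 38 differences were smaller than 0.35, for which no share of all tested genes is given here. For 36 genes the 95% interval excluded a difference of 2-fold or more in either direction. The exceptions were Atf6 and Ppp1r15a. Atf6 passed the filter through its OCS/LPS arrays alone and so had to be higher there. With RIP-OVAhi under 5, it was at least 2.61-fold higher in OCS/LPS. Its fitted difference of -1.51 (interval -2.35 to -0.67, adjusted p = 0.0986) is open to that choice of level. Ppp1r15a was higher in RIP-OVAhi by 1.12 (0.31 to 1.93, adjusted p = 0.177). Hspa5 differed by 0.33 (interval 0.03 to 0.64, adjusted p = 0.261), with both RIP-OVAhi arrays above both OCS/LPS arrays.

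**Figure D4:**
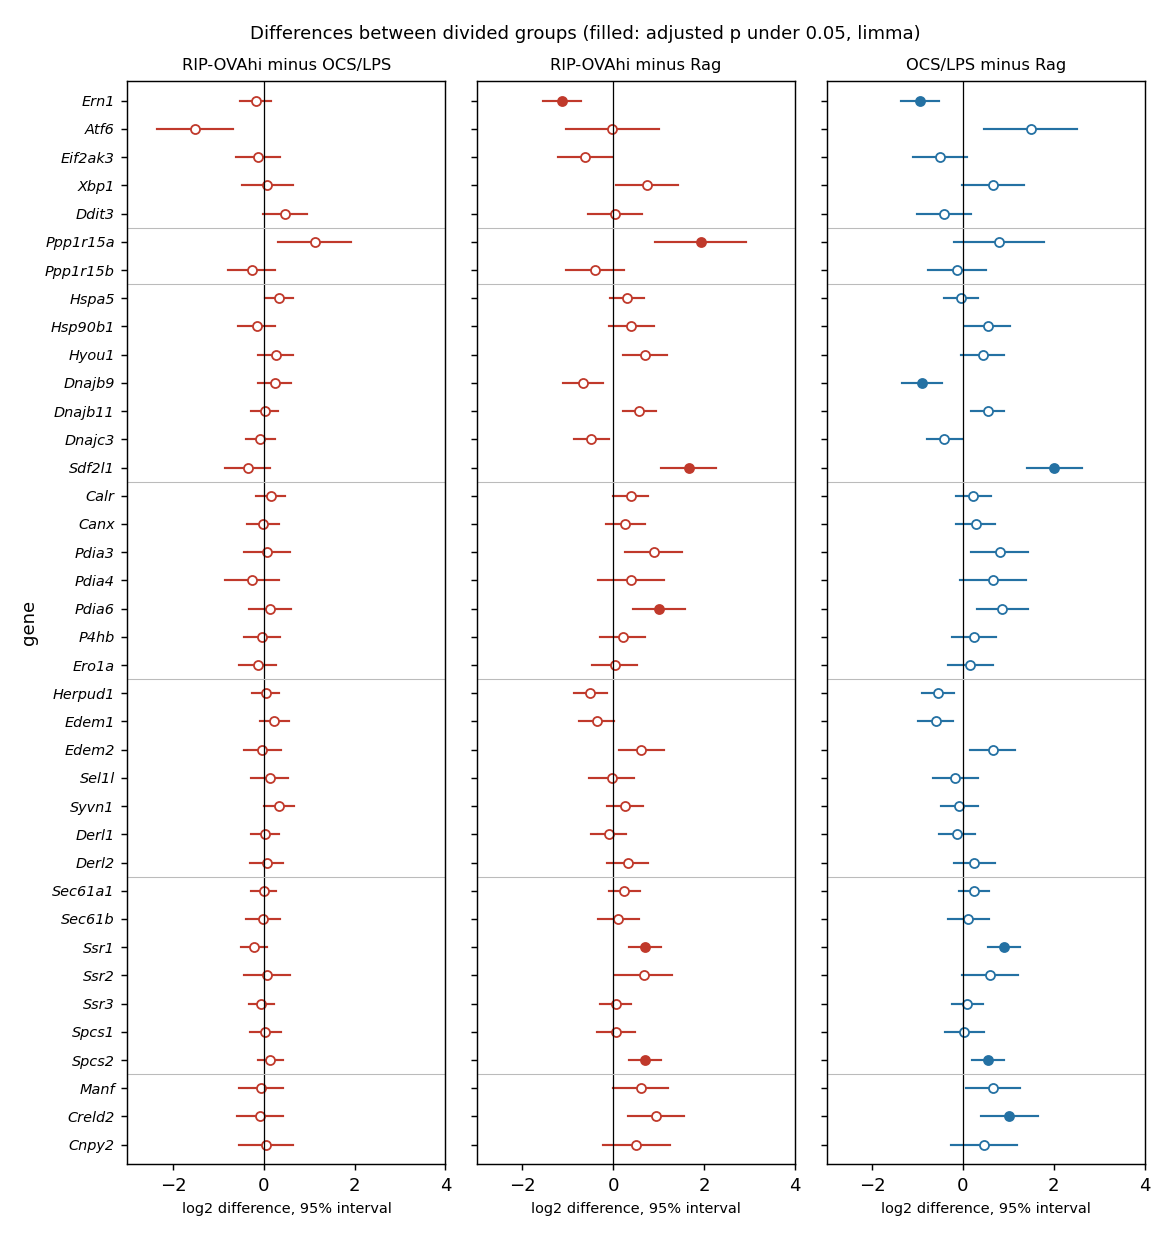
Log2 difference of the 38 genes between the divided groups, RIP-OVAhi minus OCS/LPS, RIP-OVAhi minus Rag and OCS/LPS minus Rag, with 95% intervals from limma; filled points have an adjusted p under 0.05. Most points of the left panel lie near 0 and none is filled, while 6 are filled in each of the others.

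A further 117 genes of the same pathways were listed, of which 111 were on the array and 96 were tested. In RIP-OVAhi against naive 15 of the 96 were higher and 7 lower (15.6% and 7.29%), with a median of 0.15, and in OCS/LPS 13 were higher and 7 lower, with a median of 0.09. These shares called higher lay below those of all tested genes (18.1% and 20.5%). None was called in Rag by limma, where 2.73% of all tested genes were. An unadjusted p under 0.05 was found there for 14 of the 96 and for 18.1% of all tested genes.

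**Figure D5:**
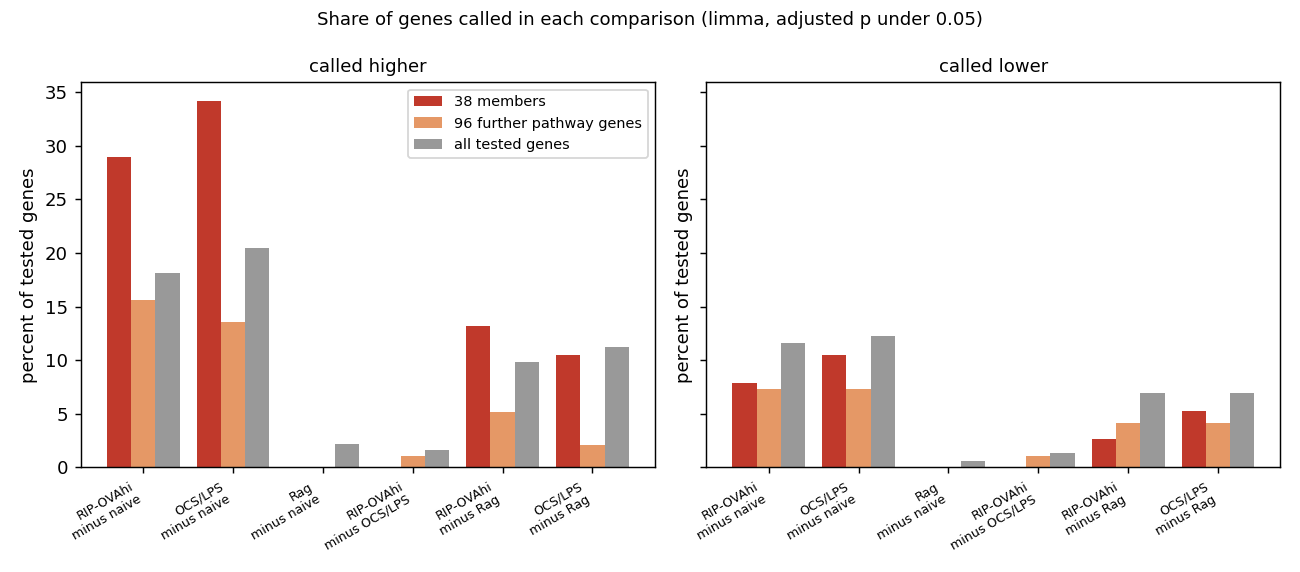
Percent of genes called higher (left) and lower (right) by limma in each of the 6 comparisons, for the 38 genes, the 96 further pathway genes and all tested genes. Against naive, the 38 genes were called higher in 28.9% (RIP-OVAhi) and 34.2% (OCS/LPS), the further genes in 15.6% and 13.5%.

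Of 11 further tested genes of the stress signalling arms, 3 fell in both groups (27.3%) and none rose. Of all tested genes 11.6% fell and 18.1% rose in RIP-OVAhi, and 12.3% fell and 20.5% rose in OCS/LPS. The 3 that fell were Atf4, the antioxidant regulator Nfe2l2 (-0.76 for RIP-OVAhi, -0.46 for OCS/LPS) and the cell death gene Bbc3 (PUMA). Bbc3 measured 4.94 and 4.89 on the RIP-OVAhi arrays, 4.94 and 4.69 on the OCS/LPS arrays, 6.37 in Rag and 6.78 and 7.04 in naive. Both antigen-driven groups lay under 5, and against that level Bbc3 was at least 3.75-fold lower in each (adjusted p = 0.000469 in RIP-OVAhi and 0.00034 in OCS/LPS). Trib3, Chac1, Atf3 and Cebpb, targets of PERK signalling in other settings, stayed under 5 on all 7 arrays.

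Among 24 other chaperones, lectins and disulfide enzymes, 5 were higher and 1 lower in RIP-OVAhi, and 2 were higher and 2 lower in OCS/LPS. The shares higher, 20.8% and 8.33%, stand beside 18.1% and 20.5% of all tested genes. Uggt1, which recognises misfolded glycoproteins, and Prkcsh, a glucosidase subunit, rose by 0.67 and 0.66 in RIP-OVAhi. Txndc5, a disulfide isomerase, rose in OCS/LPS by 1.36 (SE 0.25, adjusted p = 0.0106). Sil1, an exchange factor for Hspa5, fell by 1.02 in RIP-OVAhi and 1.06 in OCS/LPS.

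Among 17 other degradation genes, 5 were higher and 1 lower in RIP-OVAhi, and 6 were higher and 1 lower in OCS/LPS. The shares higher, 29.4% and 35.3%, stand beside 18.1% and 20.5% of all tested genes. Nploc4 and Vcp, which pull ubiquitinated proteins out of the membrane, rose in RIP-OVAhi by 0.95 and 0.62 and in OCS/LPS by 1.22 and 0.72. Of 25 other genes of entry and glycan transfer 3 rose in RIP-OVAhi cells (12%) and 1 in OCS/LPS cells (4%), and none fell. These shares lay below those of all tested genes. Of 19 genes of ER to Golgi transport, 2 were higher and 2 lower in RIP-OVAhi and 4 higher and 1 lower in OCS/LPS. The shares higher were 10.5% and 21.1%, again beside 18.1% and 20.5% of all tested genes. Among these genes were the cargo lectin Lman2 (0.73 and 0.72) and the vesicle fusion protein Sec22b (0.70 and 0.64), while Mcfd2, part of a cargo receptor, was lower (-0.60 and -0.86).

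Between RIP-OVAhi and OCS/LPS, 2 of the 96 further genes were called. Nucb2, a calcium-binding protein of the secretory pathway, lay at 6.15 and 6.00 in RIP-OVAhi and at 3.49 and 4.33 in OCS/LPS, against 5.05 in Rag and 4.88 and 5.47 in naive. With OCS/LPS under 5, it was at least 2.10-fold higher in RIP-OVAhi (adjusted p = 0.0275). Ube2g2, a ubiquitin-conjugating enzyme of ER-associated degradation, lay at 8.61 and 8.53 in RIP-OVAhi and at 9.54 and 9.41 in OCS/LPS, and was lower in RIP-OVAhi by 0.90 (SE 0.12, adjusted p = 0.0234). Against Rag, the retrieval receptor gene Kdelr1 was higher in both groups (0.98 in RIP-OVAhi and 0.94 in OCS/LPS), while Sec24a, a coat protein of ER export, was lower in both (-1.51 and -0.93).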

How the data were processed

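RNA of sorted OT-I cells in 4 groups was hybridised to 7 Affymetrix mouse arrays after 2 rounds of amplification from 100 ng total RNA, per the labels' protocols. The deposited values are log2 expression of 45101 probe sets. The submitters' processing notes name GCRMA, in a version not given in the sources used here. This method equalises the distribution of the arrays, which hides changes shared by most genes. The number of arrays limits the precision.

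Probe sets with 1 symbol (34958; 932 had several and 9211 none) were named from the platform annotation, and 34754 were matched by Entrez identifier to RefSeq of GRCm38.p6. One probe set stood for each gene, and 8203 genes with log2 of at least 5 on at least 2 arrays were tested. All 7 arrays were fitted as 4 group means in limma 3.58.1 (lmFit, eBayes; R 4.3.3), with 3 residual degrees of freedom, 2.93 from the prior, whose SD was 0.156. The single Rag array takes its spread from the duplicated groups, an assumption. Two-sided p-values were adjusted by Benjamini-Hochberg over the tested genes, and called means an adjusted p under 0.05. Each SE belongs to a log2 difference and is limma's moderated one. The procedure was tested on simulated data.

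The 38 genes, the further lists and the markers were chosen with earlier results of these data known, so counts over them carry no list test. Array values are given for up to 8 called genes per direction and comparison and for the sensors, Xbp1, Ddit3 and Atf4, and of each further list up to 4 called genes per comparison. Same-numbered arrays deviated together (r = 0.325 for RIP-OVAhi with OCS/LPS, 0.348 for RIP-OVAhi with naive and 0.132 for OCS/LPS with naive). Without X and Y genes the values were -0.02, 0.20 and -0.06. The main fit left the replicate number out, since the labels name no batch, so its p-values ignore any pairing by number. A fit with that number as a block is given where it changes a call. Promoter windows and the letters searched came from RefSeq. Alternatives were 2 centrings, no or a stricter filter, the mean of a gene's probe sets, a trend in the prior, the replicate block, a fit of 2 groups, and leaving out each duplicated array.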

Additional observations from a re-analysis of the deposited data

Results flagged for a closer look

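Ppp1r15a, the stress-induced eIF2α phosphatase subunit, had differences from naive of opposite sign in the 2 antigen-driven groups, neither of them called. Its log2 difference from naive was 0.63 in RIP-OVAhi (limma adjusted p = 0.204) and -0.49 in OCS/LPS (adjusted p = 0.301), with both RIP-OVAhi arrays above, and both OCS/LPS arrays below, both naive arrays. The difference between the groups was 1.12 (SE 0.33, limma adjusted p = 0.177) and was not called. The RIP-OVAhi arrays themselves lay 1.02 apart, at 6.76 and 7.78.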

How the results depend on the processing

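With 2 arrays per group and 1 for Rag, the counts of called genes depended on the setting more than the sizes of the differences did. Against naive, leaving out 1 array gave 2 to 15 genes higher and 1 to 4 lower in RIP-OVAhi (median 0.27 to 0.43), and 2 to 16 higher and 2 to 5 lower in OCS/LPS (median 0.29 to 0.37). For Rag it gave 0 to 3 higher and 0 to 1 lower. Against Rag it gave 0 to 13 higher and 0 to 3 lower in RIP-OVAhi, and 1 to 11 higher and 0 to 4 lower in OCS/LPS. The share of all tested genes called rose and fell with these counts, and in each of these comparisons was highest without a naive array. The Rag array could not be left out. Without the filter on dim genes 7 were higher in RIP-OVAhi and 6 in OCS/LPS against naive, where 9.3% and 10.6% of all 18194 named genes were called. Against Rag 3 were then higher and 2 lower in RIP-OVAhi. Fitting only the 2 groups compared left 6 higher in each against naive, beside 19.5% (RIP-OVAhi) and 22.0% (OCS/LPS) of all tested genes called. With the replicate block, which uses the pairing of numbers, 1 gene was higher in Rag against naive and 3 were higher in RIP-OVAhi against Rag, and it changed no call of the 38 genes beyond those named above. Centring on the tested genes gave 6 lower in RIP-OVAhi, a median of 0.18 in OCS/LPS, 2 lower in RIP-OVAhi against Rag and 4 lower in OCS/LPS against Rag; centring on all probe sets gave 2 lower in RIP-OVAhi against Rag. In OCS/LPS against Rag 1 was lower with probe sets averaged and 4 with a trend in the prior. Between RIP-OVAhi and OCS/LPS none of the 38 was called under any setting, where at most 5.07% of all genes were. Among the 38 genes' differences that were followed through these settings, only that of Atf6 in RIP-OVAhi against naive, not called, changed sign (-0.014 to 0.53 with 1 array left out, lowest without naive array 2). The causes were not tested, except that fewer arrays or more genes tested follow from how a setting is built.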
